A study of Mus musculus with 36 samples.

Results

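Methylation of 10 pluripotency genes was examined in the embryonic mouse brain: Pou5f1, Nanog, Dppa3, Dppa4, Tdgf1, Zfp42, Esrrb, Lefty1, Lefty2 and Tcl1. They were taken by name, as genes of pluripotent cells described as targets of TET1, out of 20807 autosomal protein-coding genes. TET1 occupancy was not analysed here. Each gene was read from 2 kb before its start to 2 kb after its end in the GENCODE annotation of mm10. The genes sit on mouse chromosomes 1 (Lefty1 and Lefty2), 6 (Dppa3 and Nanog), 8 (Zfp42), 9 (Tdgf1), 12 (Esrrb and Tcl1), 16 (Dppa4) and 17 (Pou5f1).

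The embryos came from intercrosses of Tet1 heterozygotes of the 129S6.Cg-Tet1tm1Koh strain, in which an insertion at the first coding ATG removes the full-length transcript. Products of shorter Tet1 transcripts were not measured here. Dams ate a diet with folic acid (FA) at the control level of 3 ppm, in excess at 30 ppm or nearly free of it at 0.1 ppm, and brains of single embryos were collected at E11.5. All of these diets also held the antibiotic succinyl sulfathiazole, so no group here was free of it. The wild-type (WT) group held 3 embryos at 30 ppm, 4 at 3 ppm and 2 at 0.1 ppm, the heterozygous (HET) group 5, 3 and 2, and the homozygous knockout (KO) group 6, 5 and 5, by the deposited labels, which gave 35 embryos from 12 litters. One KO embryo of the excess diet, its replicate 1, is HET in the study's own embryo list, so its genotype is in dispute and the KO and HET numbers of that diet follow the labels only. Of the KO embryos 5 carry the title tag NTD (neural tube defect), 4 the tag inHB, listed by the study as brain malformation, and 7 the tag norm, while no WT or HET embryo carries the tag NTD. A whole brain is a mixture of cell types, and a change of level within cells and a change in the share of cells cannot be told apart in such bulk DNA.

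TET1 is a dioxygenase that oxidises 5-methylcytosine (5mC) in CpG pairs, the first step of active demethylation. POU5F1 (OCT4) and NANOG are the core transcription factors of pluripotent cells, and ESRRB, ZFP42 (REX1), DPPA3 (STELLA), DPPA4 and TCL1 are further marks of that state. TDGF1 (CRIPTO) is a co-receptor of the growth factor NODAL, and LEFTY1 and LEFTY2 are secreted NODAL inhibitors. Several of these genes are known to gain promoter methylation as cells leave pluripotency.

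Libraries were made by reduced-representation sequencing after oxidative bisulfite conversion, which reads 5mC alone and not its oxidised form 5hmC. The 35 libraries held 25.6 to 197.3 M CpG calls (median 34.09 M; M, 1e6 calls), and 1.33 to 3.04 M CpGs with at least 5 reads. In the 10 genes with their flanks the genome holds 3664 CpGs, of which 253 (6.91%) had at least 5 reads in all 35 embryos. The share was highest in Lefty2 (14.9%) and Lefty1 (13.2%) and lowest in Nanog (1.37%), where 2 CpGs were shared by all embryos. The 5mC level of a region is the percentage of its reads that were methylated.

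A CpG in an intron of Tet1 (mm10 chr10:62884019) differed between the genotypes and served as a check of the labels. With 3 libraries set aside, it was at 0 to 7.32% in 7 WT embryos, 8.33 to 69.2% in 11 HET embryos including one otherwise left out, and 69.6 to 100% in 15 KO embryos. The libraries set aside were picked by this same CpG, so the gap between these ranges follows from that choice. The HET library at 69.2%, over 13 reads, had 10.0% at a neighbouring CpG. In 3 libraries it went against the label: the library labelled KO replicate 1 of 30 ppm had 45.0% over 20 reads, and among the WT labels replicate 2 of 30 ppm had 36.36% over 33 reads and replicate 2 of 0.1 ppm had 40.0% over 15 reads. That neighbouring CpG, covered in 26 libraries, was at 0 to 16.7% in 5 WT, 10 to 66.7% in 10 HET and 45.5 to 100% in 9 KO embryos. Its ranges overlapped between WT and HET and between HET and KO, so it separated the genotypes less clearly. It was at 38.5% in that KO library and 27.3% in that WT library of 30 ppm. The KO library is the embryo whose genotype is disputed between the labels and the study's list. Both WT libraries are WT in that list as well. These libraries were kept under their labels, so KO ranges, means and tests include it unless stated, and the comparisons between genotypes are repeated without them for the regions named beside such values. The libraries were picked by a methylation level, so differences found without them are not independent of that choice.

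Sequences of some stretches described below are shown first, read from the mm10 reference on the coding strand. CpGs measured in 18 or more embryos are in capitals. The stretches were chosen after their values were seen, so their summed levels are descriptions. In Lefty2 the stretch is the end of coding exon 2 (chr1:180894288-180894381, plus strand). In Esrrb it lies in the last coding exon (chr12:86518831-86518940, plus strand) and in Dppa3 in coding exon 2 (chr6:122628640-122628730, plus strand). In Zfp42 it lies 430 to 600 bases before the start, in no annotated exon (chr8:43307410-43307580, minus strand), and in Pou5f1 in exon 3 (chr17:35509460-35509538, plus strand).
Lefty2 exon 2: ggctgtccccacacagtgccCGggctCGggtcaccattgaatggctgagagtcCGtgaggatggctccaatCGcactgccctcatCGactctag
Esrrb last exon: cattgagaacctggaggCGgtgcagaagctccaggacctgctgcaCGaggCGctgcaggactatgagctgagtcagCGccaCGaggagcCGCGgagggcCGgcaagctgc
Dppa3 exon 2: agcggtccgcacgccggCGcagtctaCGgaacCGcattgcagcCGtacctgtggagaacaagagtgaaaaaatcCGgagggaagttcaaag
Zfp42 upstream: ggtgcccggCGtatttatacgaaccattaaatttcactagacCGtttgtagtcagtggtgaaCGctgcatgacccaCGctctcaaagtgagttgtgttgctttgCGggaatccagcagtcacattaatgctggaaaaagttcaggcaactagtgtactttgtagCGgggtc
Pou5f1 exon 3: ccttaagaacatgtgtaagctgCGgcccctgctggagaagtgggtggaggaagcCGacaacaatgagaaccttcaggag

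The main comparison set 16 KO against 9 WT embryos over the 3 diets. For each gene the promoter (2 kb before to 500 bases after the start), the body (the rest of the gene) and the 2 kb after the gene were summed over CpGs with at least 5 reads in every embryo compared. A region with at least 3 such CpGs and an SD of at least 2 percentage points between embryos was tested with a quasi-binomial model, and was called at an adjusted p under 0.05 with a difference of at least 10 points. That SD was taken over KO and WT embryos together, so a difference between them helped a region to pass, here and among all regions. The Pou5f1 body and the Tdgf1 promoter did not pass. Of 8 regions tested in 7 of the 10 genes, 3 rose in KO brains and none fell. They were the Lefty1 promoter, the Lefty2 body and the Dppa3 body. Among all 14907 regions tested, 11.9% were called higher and 0 lower, and the median difference was 3.48 points. By kind, 20.2% of promoters, 9.36% of bodies and 16.5% of downstream regions were called higher. The median over the 8 regions was 9.39 points, from 1.85 points in the Dppa4 promoter to 29.7 points in the Lefty1 promoter. At an adjusted p under 0.05 with no minimum difference, 7 of the 8 were higher, beside 51.3% of all regions.

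Of the 8 regions tested over all diets, the Lefty1 promoter had the largest difference. The 3 shared CpGs of its promoter region all lie in coding exon 1, 128, 156 and 198 bases after the start. WT embryos ranged from 14.7 to 32.0% (median 24.2%), HET embryos from 17.8 to 41.0% (median 28.2%) and KO embryos from 30.6 to 69.5% (median 56.1%). All KO libraries but one lay above every WT library. That library, labelled KO replicate 1 of 30 ppm, had 30.6%. The mean was 54.5% ± 8.88 (SD, 16 KO embryos) against 25.1% ± 6.13 (SD, 9 WT embryos), a difference of 29.7 points adjusted for diet (adjusted p = 4.48e-08). Without the 3 libraries against their label the difference was 33.3 points (adjusted p = 4.84e-10).

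The single CpGs of Lefty1 exon 1 moved together. The CpG at 156 bases had 42.8% in WT, 47.2% in HET and 78.2% in KO embryos, and the CpG at 198 bases 22.3%, 24.7% and 60.7%. The CpG at 128 bases was lower, at 12.4% in WT and 33.8% in KO embryos. Each of these 3 was called, with adjusted p-values of 2.01e-12, 2.81e-09 and 3.34e-10. A further 7 CpGs of the first 500 bases, 1 of them in the UTR, had enough reads in only some of the embryos and were not tested, and all 10 had a higher mean in KO than in WT embryos, as did 414 of 540 measured CpGs of the 10 genes.

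In the Lefty1 body the level was low in every genotype. KO embryos had 5.24% ± 2.44 and WT embryos 1.57% ± 1.34 over 13 CpGs, a difference of 3.57 points (adjusted p = 0.000134), which is under the 10 points a call needs. A single CpG of coding exon 2, 1725 bases after the start, was called, with 2.65% in WT and 19.2% in KO embryos.

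Lefty2, the paralog that lies next to Lefty1, rose in the gene body. Its promoter had no CpG shared by all 35 embryos, so no level is given for it. Over the 26 CpGs shared by all 35 embryos, WT libraries ranged from 2.20 to 7.64% (median 3.26%), HET libraries from 2.40 to 5.10% (median 3.501%) and KO libraries from 5.44 to 19.6% (median 16.1%). The highest WT value (7.64%) and the lowest KO value (5.44%) both came from libraries against their label, and no other KO library lay under 12%. The difference over 27 CpGs shared by KO and WT embryos was 12.7 points (17.1% ± 3.45 in 16 KO and 4.43% ± 1.70 in 9 WT embryos, adjusted p = 2.45e-09). Without the 3 libraries it was 14.3 points (adjusted p = 7.65e-15).

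The called CpGs of Lefty2 ran from coding exon 2 through the following intron and coding exon 3 into the next intron, 1200 to 1847 bases after the start. Of 28 tested CpGs 17 were called higher. The CpG at 1200 bases rose from 10.9 to 41.5%, the CpG at 1804 bases from 5.70 to 31.2% and the CpG at 1847 bases from 31.7 to 63.5%, each from WT to KO embryos. The 3 in HET embryos were at 14.3, 5.11 and 38.69%.

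**Figure D1:**
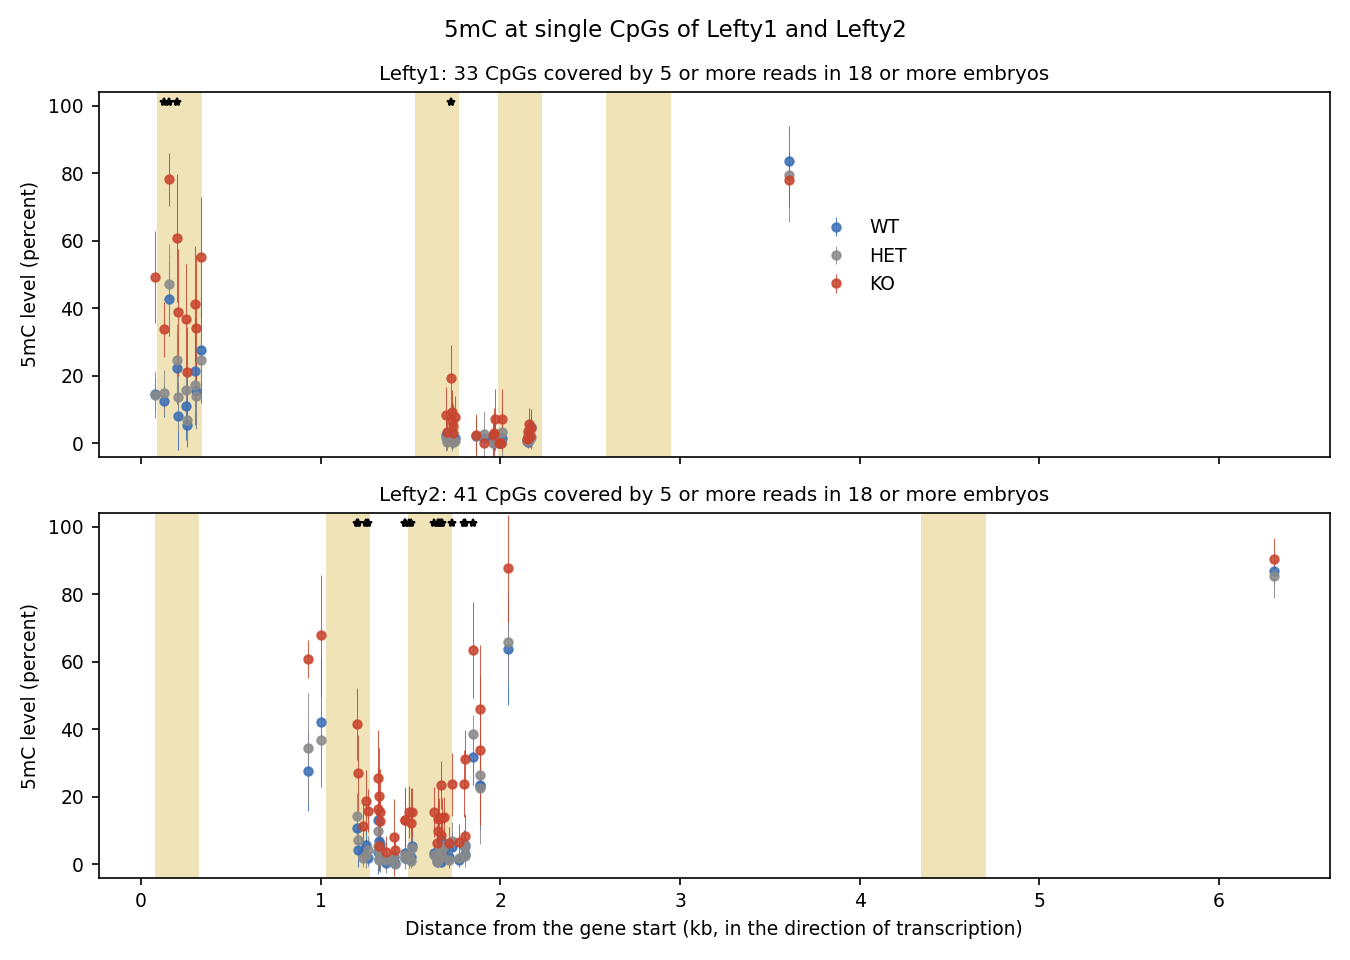
Mean 5mC level (percent, with SD between embryos) of single CpGs against the distance from the gene start (kb) for WT, HET and KO embryos; shaded bands are coding exons and stars mark CpGs called higher in KO than in WT embryos. In Lefty1 the KO values stand apart in exon 1 and stay under 20% in exons 2 and 3, and in Lefty2 they stand apart from 1200 to 1847 bases.

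Both genes are nearly the same sequence in coding exons 2 and 3, so the paralogs could be compared base by base. Coding exon 2 was 94.3% identical over 247 bases and coding exon 3 was 98.0% identical over 246 bases, with stretches of 125 and 135 bases without a mismatch, while coding exon 1 was 77.6% identical. At 13 CpGs present and measured in both genes the KO means were 6.19 to 41.5% in Lefty2 and 0 to 9.12% in Lefty1. All of them lay in coding exons 2 and 3, so coding exon 1 could not be compared. Of these pairs 9 were measured in all 35 embryos in both genes, and the rest in fewer embryos in Lefty1. The Lefty1 values of 0 came from CpGs measured in 19 embryos. The median KO minus WT difference was 10.8 points in Lefty2 and 1.32 points in Lefty1, and it was larger in Lefty2 at 13 of 13 pairs. The pair at the first capital CpG of the Lefty2 sequence above had 41.5% in Lefty2 and 8.36% in Lefty1 of KO embryos. Reads that lie wholly within an identical stretch cannot be told apart between the paralogs, so levels there are uncertain, and the size of that effect was not tested.

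Dppa3 encodes a maternal factor that protects DNA from demethylation in the early embryo. Its body was already highly methylated in WT brains. Over 5 CpGs of coding exon 2 shared by all embryos, WT libraries ranged from 49.4 to 72.6% (median 60.1%), HET libraries from 55.4 to 78.3% (median 60.7%) and KO libraries from 69.9 to 87.8% (median 77.6%). The WT and KO ranges overlapped. With 2 further CpGs shared by KO and WT embryos the difference was 16.5 points (76.5% ± 4.98 in 16 KO and 60.3% ± 6.92 in 9 WT embryos, adjusted p = 3.15e-06), and 12 of the 16 KO libraries lay above every WT library. The library labelled KO replicate 1 of 30 ppm had 77.8% here, within the range of the other KO libraries. Without the 3 libraries against their label the difference was 18.3 points (adjusted p = 9.75e-07). Each of the 5 exon 2 CpGs was called, with differences from 16.3 to 21.2 points, as was a CpG in the intron before it (52.1% in WT and 61.8% in KO embryos). The Dppa3 promoter had 1 shared CpG, at 84.4% in WT and 85.9% in KO embryos, and was not tested.

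Esrrb, an orphan nuclear receptor gene of 160512 bases, held 128 of the 242 CpGs tested in the 10 genes. Its body as a whole was 45.7% ± 3.12 in KO and 36.24% ± 2.69 in WT embryos over 144 CpGs, a difference of 9.71 points (adjusted p = 8.59e-08) that is just under the 10 points a call needs. Without the 3 libraries against their label it was 11.7 points (adjusted p = 1.52e-11) and was called. Over the 142 CpGs shared by all embryos, WT libraries ranged from 31.9 to 40.9%, HET libraries from 36.601 to 44.0% and KO libraries from 38.55 to 50.6%. All KO libraries except the one against its label were above every WT library.

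The difference was spread unevenly along Esrrb. The last coding exon held a patch of 7 CpGs, 157731 to 157805 bases after the gene start, each called, with WT means of 4.85 to 25.3%, HET means of 4.68 to 32.7% and KO means of 45.2 to 82.4%. Summed over the 7 CpGs, WT libraries ranged from 7.50 to 36.1% (median 12.4%), HET libraries from 12.4 to 36.364% (median 21.03%) and KO libraries from 15.04 to 86.8% (median 70.3%). The lowest KO value and the highest WT values again came from libraries against their label: 15.04% in KO replicate 1 of 30 ppm, 36.1% in WT replicate 2 of 0.1 ppm and 28.3% in WT replicate 2 of 30 ppm. The next lowest KO library had 46.4% and the next highest WT library 19.5%. In the same exon 4 further CpGs, up to 157864 bases, were measured in some embryos only and not tested, with WT means of 9.91 to 17.4% and KO means of 62.0 to 65.7%. CpGs before the patch, at 157019 and 157108 bases, were already at 78.2 and 82.7% in WT embryos and at 90.2 and 94.9% in KO embryos.

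Esrrb has 4 annotated transcript starts, of which the next after the gene start lies at 86421644. Between 60374 and 61477 bases after the gene start, around that start and its first exon, 44 CpGs had WT means of at most 2.77% and KO means of at most 6.06%, and 0 of the 10 tested CpGs were called in the quasi-binomial test. In the next stretch, from 61485 to 62622 bases, 14 of 34 tested CpGs were called higher, and the mean over the 34 was 4.51% in WT, 5.23% in HET and 14.1% in KO embryos. At 62113 bases the level was 15.9% in WT and 46.4% in KO embryos. Further intronic CpGs were called elsewhere, 4 of 9 tested at 41639 to 41788 bases (mean 5.496% in WT and 14.9% in KO embryos) and 6 of 6 at 112408 to 112520 bases (56.6 and 72.4%). These stretches were chosen after their values were seen.

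**Figure D2:**
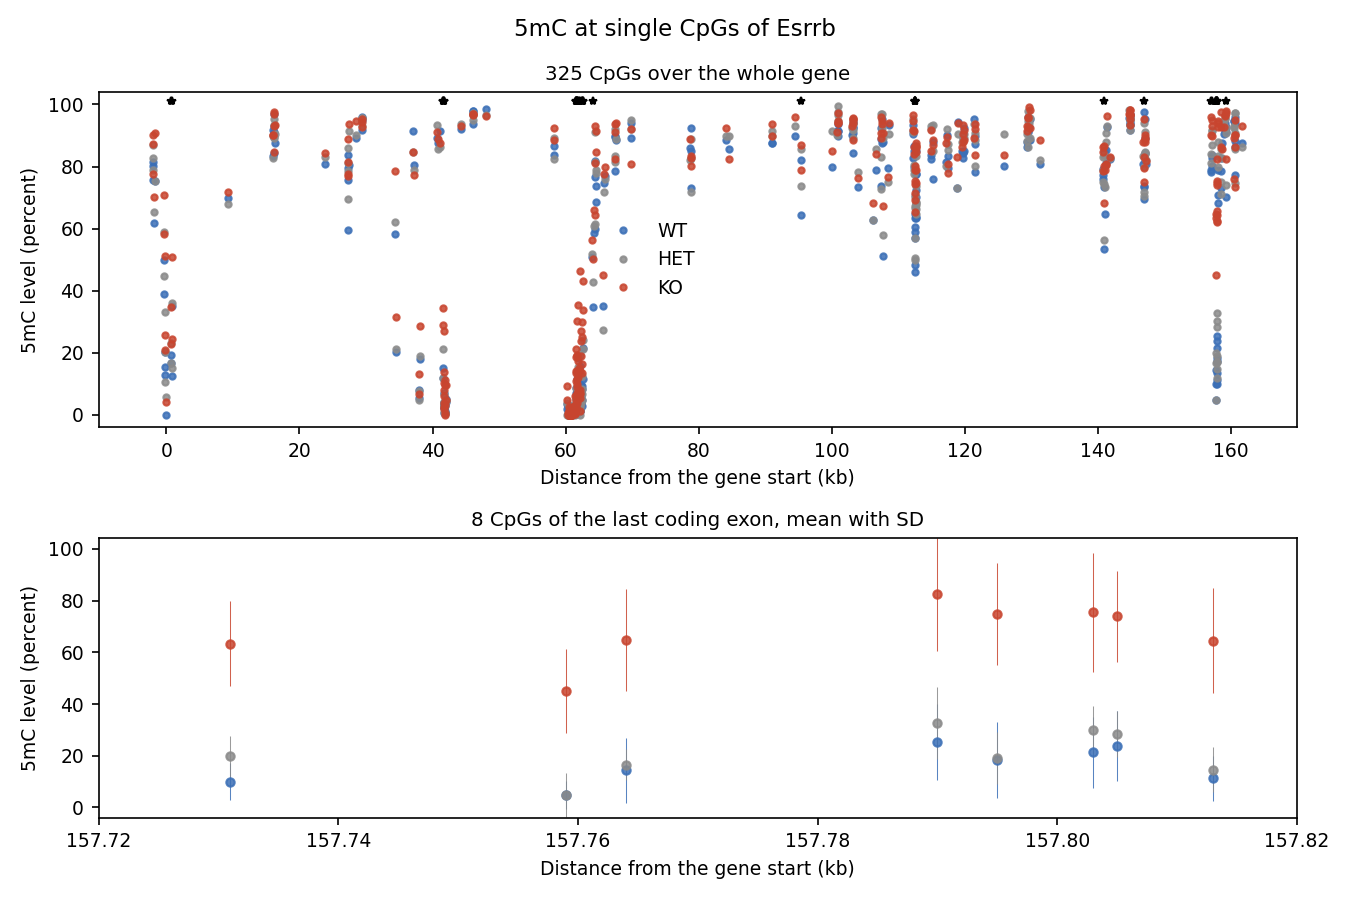
Mean 5mC level (percent) of single Esrrb CpGs against the distance from the gene start (kb) in WT, HET and KO embryos, over the whole gene (top, stars mark CpGs called higher in KO embryos) and in the last coding exon (bottom, with SD between embryos). Levels are near 0 around the next transcript start at about 60 kb in every genotype, and the KO means of the exon patch lie between 45.2 and 82.4% while the WT means stay under 26%.

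Zfp42 was covered on either side of its start. The 6 upstream CpGs shown above had WT libraries from 51.9 to 71.4%, HET libraries up to 75.0% (median 66.1%) and KO libraries from 61.1 to 78.8%. The ranges overlapped widely. The difference of 9.06 points (71.3% ± 5.03 in KO and 62.0% ± 7.27 in WT embryos, adjusted p = 0.00152) stayed under 10 points, and the CpGs at -495 and -537 bases from the start were called one by one (differences of 11.4 and 13.9 points). Leaving out the 3 libraries against their label gave 9.72 points for the region (adjusted p = 0.000789). The gene body was at 92.7% in WT and 93.3% in KO embryos.

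Pou5f1 and Nanog did not show a called region. The 11 body CpGs of Pou5f1 shared by KO and WT embryos summed to 13.2% ± 1.80 in 9 WT and 13.5% ± 1.82 in 16 KO embryos, with a spread between embryos too small to enter the test, and 0 of its 13 tested CpGs were called. At its start, 2 CpGs had 19.1% in WT and 15.7% in KO embryos. The intronic CpG at 586 bases had 21.1% in WT and 14.7% in KO embryos, a difference of -6.23 points (adjusted p = 0.0321) that was not called. The 2 CpGs of Pou5f1 exon 3 shown above stood apart from the rest of the gene but had enough reads in 31 embryos only and were not tested. Their means were 22.4% in WT, 25.8% in HET and 45.33% in KO embryos at the first and 16.8, 22.5 and 52.5% at the second. Summed over both, 8 WT libraries ranged from 5.00 to 34.9%, 10 HET libraries had a median of 18.5% and 13 KO libraries reached 71.4%, and the groups overlapped, on 10 to 127 reads a library. Nanog had 2 shared body CpGs, at 92.6% in WT, 90.8% in HET and 90.3% in KO embryos, and its promoter had none.

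In Tdgf1, Dppa4 and Tcl1 no region was called. The Tdgf1 promoter (14 CpGs) was at 7.62% in WT, 5.91% in HET and 6.599% in KO embryos and was not tested for lack of spread, and the 1 body CpG shared by all of them was at 91.9% in WT and 92.4% in KO embryos. Over 3 body CpGs shared within a diet, Tdgf1 was at 71.1% ± 7.68 in WT and 63.0% ± 4.93 in KO embryos on the control diet (-8.11 points, adjusted p = 0.332) and at 69.9 and 69.2% on the excess diet (adjusted p = 0.931). The Dppa4 promoter (3 CpGs) was at 84.5% ± 4.37 in WT and 86.1% ± 3.51 in KO embryos (difference 1.85 points, adjusted p = 0.406). The Tcl1 body (6 CpGs) was at 92.0% ± 1.93 in WT and 94.2% ± 1.92 in KO embryos (difference 2.23 points, adjusted p = 0.049). Of 4, 9 and 15 CpGs tested in Dppa4, Tcl1 and Tdgf1, 0 were called.

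**Figure D3:**
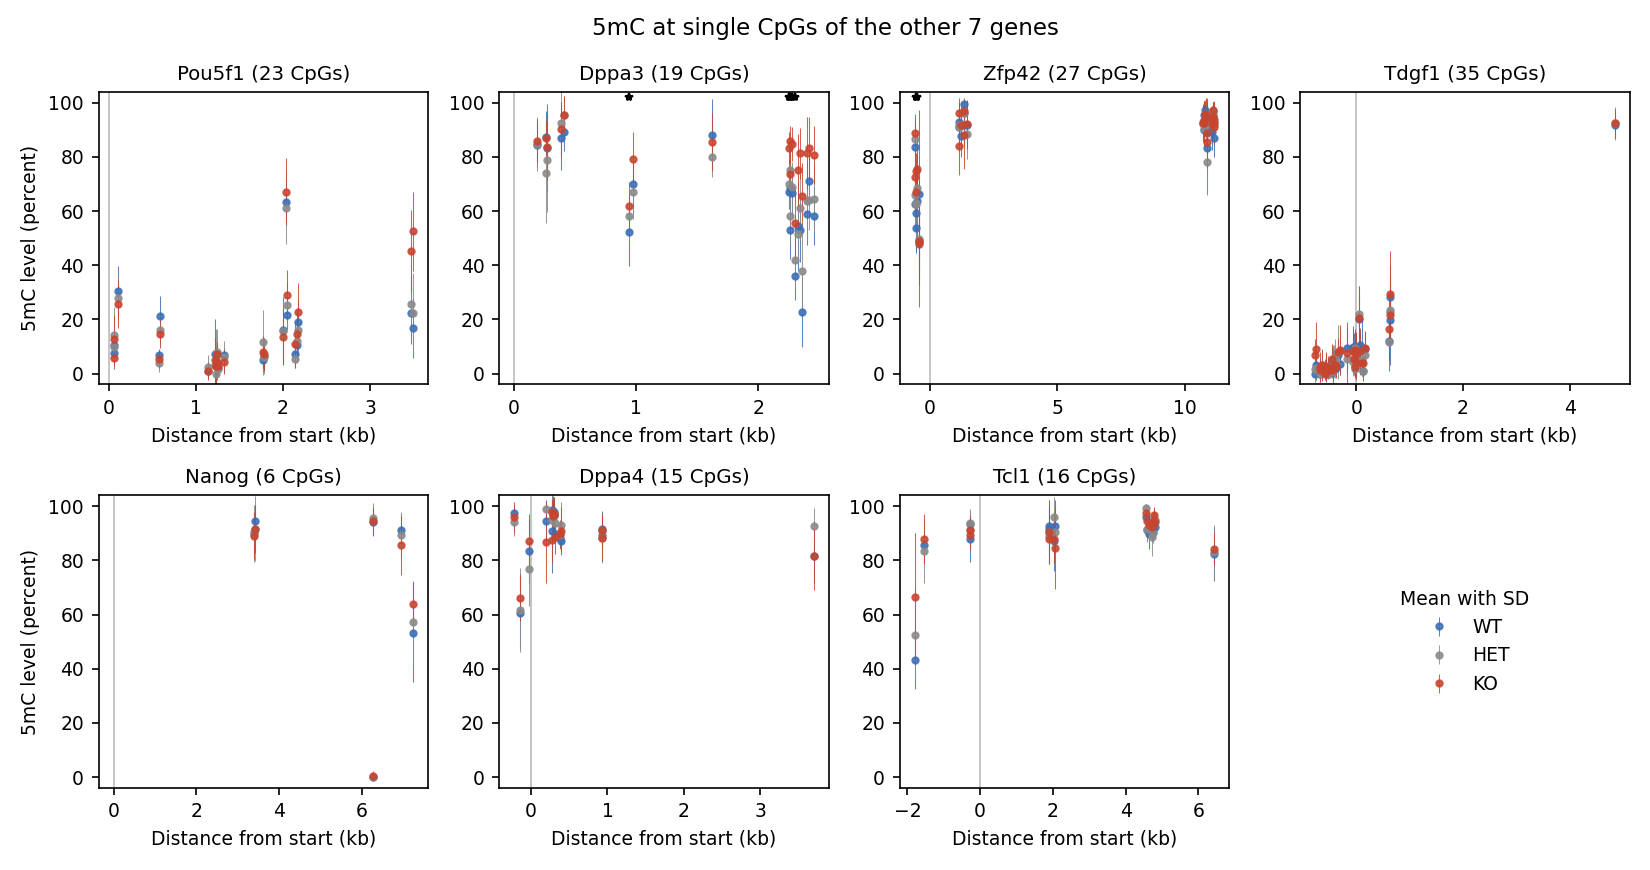
Mean 5mC level (percent, with SD between embryos) of single CpGs against the distance from the gene start (kb) in WT, HET and KO embryos for Pou5f1, Dppa3, Zfp42, Tdgf1, Nanog, Dppa4 and Tcl1; stars mark CpGs called higher in KO embryos. The 5 exon 2 CpGs of Dppa3, a CpG in the intron before them and 2 CpGs upstream of Zfp42 carry stars. The 2 Pou5f1 CpGs near 3.5 kb, which were not tested, have KO means of 45.33 and 52.5%.

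Counted by single CpG, 69 of the 242 tested in the 10 genes were called higher in KO than in WT embryos and none lower, beside 11.6% called higher and 0.0189% lower among all 548970 CpGs tested. They were 40 of 128 in Esrrb, 17 of 28 in Lefty2, 6 of 8 in Dppa3, 4 of 16 in Lefty1 and 2 of 19 in Zfp42. By annotation, 28 of 66 coding CpGs, 38 of 146 intronic CpGs, 1 of 8 UTR CpGs and 2 of 22 flank CpGs were called. Shares by annotation among all CpGs were not computed, so these counts have no background and do not show a preference for a kind of CpG. Without the 3 libraries against their label 76 were called, and among all CpGs 75547 of 555115 were called higher, up from 63812. CpGs of one patch share reads, so they are not independent. The share depended on the level of the CpG in HET embryos, which enter neither side of the comparison. Of CpGs under 20% in HET embryos 38 of 122 (31.1%) were called in these genes and 9.78% among all CpGs, of CpGs from 20 to under 80% 26 of 40 (65.0%) and 44.2%, and of CpGs at 80% or more 2 of 74 (2.70%) and 2.32%. The other 6 tested CpGs, 3 of them called, were not covered in every HET embryo and entered no bin.

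**Figure D4:**
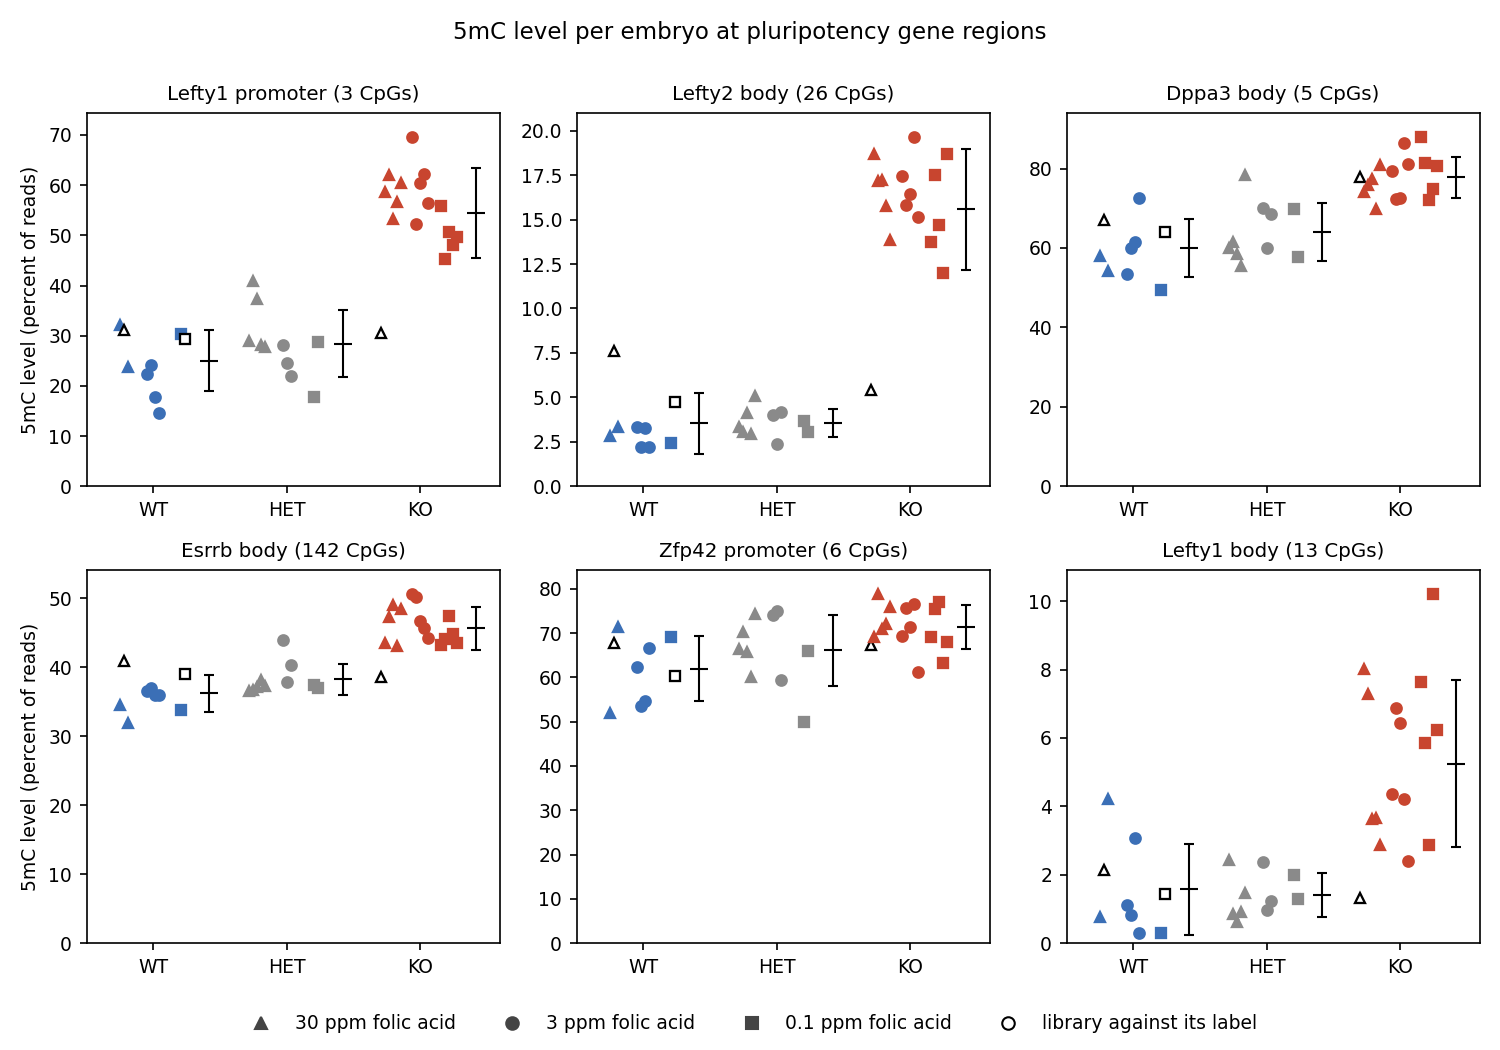
5mC level (percent of reads) of each of the 35 embryos in 6 regions by genotype, over the CpGs shared by all embryos; symbols give the diet, open symbols the 3 libraries against their label, and bars the mean with SD of each genotype. The KO library drawn open lies at 30.6% in the Lefty1 promoter and 5.44% in the Lefty2 body, apart from the other KO libraries, and WT and HET libraries overlap in each region.

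In HET embryos no called change was seen in the regions of these genes that could be tested. These regions lay in 5 of the 10 genes. The Lefty2 body was not among them for lack of spread. It was at 3.59% in HET and 3.56% in WT embryos over the CpGs shared by all embryos. Between 10 HET and 9 WT embryos 5 member regions could be tested and 0 were called by the quasi-binomial test, by limma on logit levels, or at an unadjusted p under 0.05. Among all 13633 regions 0.0367% were called higher. More were called without the libraries against their label, and 0 with litter as a block. The Lefty1 promoter differed by 1.99 points (28.4% ± 6.71 in HET embryos, adjusted p = 0.914), the Dppa3 body by 4.35 points (adjusted p = 0.603) and the Esrrb body by 2.34 points (adjusted p = 0.442). With litter as a block the Lefty1 promoter difference turned negative. Without the WT libraries against their label the Esrrb difference was 4.08 points (adjusted p = 0.00188), still under 10 points. The KO library against its label does not enter this comparison.

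KO embryos differed from HET embryos in the same 3 regions that were called against WT, with 3 of 8 tested regions called beside 7.76% of all regions. The difference was 26.7 points in the Lefty1 promoter (adjusted p = 1.02e-07), 13.5 points in the Dppa3 body (adjusted p = 3.37e-05) and 11.9 points in the Lefty2 body (adjusted p = 1.82e-10). In the Lefty2 body all 16 KO libraries lay above all 10 HET libraries, the disputed KO replicate 1 of 30 ppm only narrowly. Over the CpGs shared by all 35 embryos that library was at 5.44% (95% Wilson interval 3.99 to 7.38%) and the highest HET library at 5.10%. The Esrrb body differed by 7.40 points (adjusted p = 2.39e-07) and was not called. Without the KO library against its label the 3 differences were 28.9, 13.3 and 12.8 points. The KO embryos are shared between this comparison and the one with WT.

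Within the control diet of 3 ppm, 4 of 10 tested regions rose in KO embryos, beside 14.6% of all regions called higher and 0.0312% lower. The Lefty1 promoter, here over 9 CpGs, was 52.5% ± 5.85 in 5 KO and 16.2% ± 4.80 in 4 WT embryos. This difference of 36.26 points gave adjusted p = 9.32e-06 by the quasi-binomial test, moderated as in limma. The Lefty2 body differed by 14.5 points (adjusted p = 6.14e-07), the Esrrb body by 11.3 points (adjusted p = 2.8e-05) and the Dppa3 body by 15.6 points (adjusted p = 0.00414). KO and WT libraries did not overlap in the first 3 of these regions, and in the Dppa3 body 4 of 5 KO libraries were above every WT library.

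Within the depleted diet of 0.1 ppm, 3 of 9 regions rose, beside 10.9% of all regions, with only 2 WT embryos, of which one went against its label. The Lefty2 body differed by 12.8 points (adjusted p = 0.000667), the Dppa3 body by 21.5 points (adjusted p = 0.0154) and the Lefty1 promoter by 20.04 points (adjusted p = 0.016). With litter as a block the Lefty2 body alone was called, with 1260 calls among all regions against 1724, and the adjusted p was 0.0624 for the Lefty1 promoter and 0.0826 for the Dppa3 body. Leaving out either WT library leaves 1 WT embryo, which is then assumed to vary like the KO embryos. Without the WT library against its label the Lefty1 promoter had an adjusted p of 0.0506 at 19.6 points and the Esrrb body was called at 11.2 points (adjusted p = 0.00112). Without the other WT library the Lefty2 body alone was called, with 980 calls among all regions.

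Within the excess diet of 30 ppm, 0 of 10 regions were called by the quasi-binomial test or by limma, beside 0.0% of all 15767 regions, although 5 had an unadjusted p under 0.05. The Lefty1 promoter differed by 21.1 points (adjusted p = 0.0638), the Dppa3 body by 13.8 points (0.0694), the Lefty2 body by 10.3 points (0.0576) and the Esrrb body by 8.99 points (0.081). This group holds 2 of the 3 libraries against their label. Without them 2295 of all regions and 5 of these were called, at 27.1 points in the Lefty1 promoter (adjusted p = 0.000317), 17.1 points in the Dppa3 body (0.00287), 13.8 points in the Lefty2 body (5.86e-06), 13.2 points in the Esrrb body (0.000122) and 11.7 points in the Zfp42 promoter (0.0118). Leaving out the library labelled KO replicate 1 alone gave 4 called regions (1469 among all regions) and leaving out the library labelled WT replicate 2 alone gave 5 (1397 among all). Without any other single library of this diet the count was 0.

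The diet itself was then compared within each genotype. The 3 shared CpGs of the Lefty1 promoter are given by embryo. In WT embryos the control diet gave 22.4, 24.2, 17.8 and 14.7%, the excess diet 32.0, 31.2 and 23.8%, and the depleted diet 30.3 and 29.3%. In HET embryos the control diet gave 28.2, 24.7 and 22.0%, the excess diet 28.9, 41.0, 37.3, 28.1 and 27.7%, and the depleted diet 17.8 and 28.7%. In KO embryos the control diet gave 69.5, 52.2, 60.4, 62.3 and 56.4%, the excess diet 30.6, 58.5, 62.0, 53.3, 56.6 and 60.4%, and the depleted diet 55.8, 45.2, 50.6, 48.0 and 49.6%. The WT values of 31.2 and 29.3% and the KO value of 30.6% came from the libraries against their label. Of the WT values on the control diet, 24.2% alone lay above the lowest on the other diets (23.8%), and KO values on the control diet overlapped with those on the others.

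Every litter came from a single diet, so diet cannot be told apart from litter in these tests. Littermates entered as separate embryos, with no litter term. In the tests of diet 0 member regions were called in any genotype, and 0.0% of all regions were called in each of the 6 comparisons. An unadjusted p under 0.05 was seen for excess against control in 1 of 7 member regions in WT, 1 of 10 in HET and 0 of 10 in KO embryos, and for depleted against control in 1 of 8, 1 of 11 and 1 of 8. In WT embryos that region was the Lefty1 promoter over 9 CpGs, where excess minus control was 7.10 points (unadjusted p = 0.0268 in the quasi-binomial fit, adjusted p = 1) and depleted minus control 10.6 points (unadjusted p = 0.035, adjusted p = 0.997). Each of these WT comparisons holds a library against its label. In KO embryos the difference of the Lefty1 promoter over 3 CpGs was -10.3 points for depleted minus control (unadjusted p = 0.0197, adjusted p = 0.99). The largest diet difference of a tested member region was in the Zfp42 promoter of HET embryos, at 57.9% ± 11.2 on the depleted and 69.5% ± 8.77 on the control diet (-11.5465 points, unadjusted p = 0.15, adjusted p = 0.993). The region of HET embryos with an unadjusted p under 0.05 was the Esrrb body, at 42.8% on 30 ppm against 46.2% on 3 ppm and, over another set of shared CpGs, at 44.9% on 0.1 ppm against 48.6% on 3 ppm.

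The difference between KO and WT embryos was also compared between diets, with an interaction term. No member region passed: 0 of 10 for 30 against 3 ppm and 0 of 8 for 0.1 against 3 ppm, beside 0.0% of all regions. The Lefty1 promoter had the lowest unadjusted p of the tested regions in both. Its KO effect was 15.2 points smaller on 30 ppm than on 3 ppm (unadjusted p = 0.00995, adjusted p = 0.902) and 20.4 points smaller on 0.1 ppm than on 3 ppm (unadjusted p = 0.00259, adjusted p = 0.985). These comparisons share the control-diet embryos, and littermates again entered as separate embryos with no litter term. Without the libraries against their label no member region passed either, and the separate Lefty1 promoter differences were 27.1 points on 30 ppm, 36.26 on 3 ppm, both over 9 CpGs, and over 3 CpGs 19.6 on 0.1 ppm, so the last cannot be set against the others.

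Related genes were read from 3 lists. Among 14 further genes of naive pluripotency, 14 regions in 10 genes could be tested and 1 was called higher, the promoter of Prdm14, a repressor of lineage genes, at 14.4% ± 4.27 in KO and 3.79% ± 1.61 in WT embryos (difference 11.003 points, adjusted p = 4.47e-08). The list's median difference was 4.06 points, and its 1 of 14 stands beside 11.9% called higher among all regions and 20.2% among all promoters. Among 12 core and primed pluripotency genes, 5 regions in 4 genes were tested and 1 was called, the promoter of Sall4, a zinc finger factor, at 30.5% ± 6.20 and 19.0% ± 3.65 (11.53 points, adjusted p = 7.2e-05), with a list median of 3.02 points, beside the same 11.9% of all regions and 20.2% of promoters. Sox2, the partner of POU5F1, stayed under 1% in promoter and body in all genotypes.

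Among 13 genes of the Nodal pathway, in which the LEFTY proteins and TDGF1 act, 14 regions in 10 genes were tested and 3 were called higher in 2 genes, with a list median of 4.15 points, beside 11.9% of all regions, 9.36% of bodies and 16.5% of downstream regions. The 2 kb after Foxh1, a transcription factor that acts downstream of NODAL, rose from 19.5% ± 5.47 in WT to 51.4% ± 7.78 in KO embryos over 28 CpGs (32.2 points, adjusted p = 2.08e-09). Gdf1, a co-ligand of NODAL, rose by 16.7 points in its body (adjusted p = 6.27e-08) and by 13.9 points after its end (adjusted p = 1.65e-06). The body of Nodal itself was at 10.95% in WT and 12.7% in KO embryos and was not tested for lack of spread. The body of Gdf3 was 8.79 points lower in KO embryos (adjusted p = 0.00607) and was not called. The median of all tested regions was 3.48 points, as given above, and no region of the 3 lists was called between HET and WT embryos.

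Likeness to the member promoters was measured by Pearson's r over the 25 KO and WT embryos, among 2360 promoters tested. The promoters closest to Lefty1 were those of Csnk1e (r = 0.955), Oxtr (r = 0.951) and Stpg4 (r = 0.940). Their levels were 4.03, 4.10 and 32.3% in WT and 11.1, 20.03 and 72.3% in KO embryos. Within the 16 KO embryos alone r was 0.857, 0.855 and 0.764, values that include the library against its label. Among the closest to Zfp42 were S100a1 (r = 0.738) and Esm1 (r = 0.732), and the closest to Dppa4 were Olfr872 (r = 0.684), Mfsd3 (r = 0.628) and Prokr1 (r = 0.571). The points share genotype and library, so these values describe the samples only. The related lists and the likeness were not computed without the 3 libraries.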

How the data were processed

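Brains of single E11.5 embryos were profiled by oxidative-bisulfite RRBS after MspI and TaqI digestion. Per the submitters' processing notes, the authors used Trim Galore 0.6.10, Bismark 0.24.1 and UMI-tools on mm10, so reads were collapsed by molecular identifier. Each deposited table holds, per CpG, the methylated fraction and the count of reads. The methylated count was recovered as fraction times count, within 0.001 of a whole number on every line. Positions were 0-based and were shifted by 1. The authors' lists of differential regions hold their own comparisons and were not used.

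GENCODE M21 genes were used. Regions needed 3 CpGs with at least 5 reads in every embryo compared and an SD of 2 points. Group differences are least-squares estimates on embryo levels, with diet as a covariate where diets were joined. Tests were quasi-binomial F tests with dispersions moderated across all regions as in limma, and Benjamini-Hochberg adjustment over all regions, run in Python 3.11.15 with scipy 1.17.1 and tested on simulated data. limma 3.58.1 (R 4.3.3) on logit levels was an alternative. CpGs were tested the same way, with the same SD filter over KO and WT embryos together. One HET embryo of 0.1 ppm, the library with the fewest calls (23.2 M), which the study left out, was not used. Litter, named in the labels, pairs embryos of a comparison between genotypes and entered as a block in an alternative of those comparisons only. Other alternatives were a coverage minimum of 10, each library's own CpGs, no minimum difference, no SD filter, 1 CpG, a promoter of 1 kb to either side, sex, one fit of all 35 embryos, and leaving out libraries.

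The members, the lists and the label check were chosen with earlier results of these data known. Named genes were all members, for each list the called genes, and for likeness the 3 closest promoters, of which 1 is not reported here. Sox2, Nodal and Gdf3 fall outside this rule and were chosen after their values were seen. Nearby genes can share a flank. Depth sets the precision: 48 to 402 reads lay behind a Lefty1 promoter value. Intervals cover counting error only.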

Additional observations from a re-analysis of the deposited data

Results flagged for a closer look

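Of 40 groups of 4 to 6 embryos in the 8 tested regions, 3 had an embryo whose gap to its nearest neighbour exceeded the 95% limit of Dixon's test. Chance alone flags about 1 in 20 groups. Both low values came from the library labelled KO replicate 1 of 30 ppm, the one whose Tet1 CpG went against its label. Its Lefty1 promoter was at 30.6% (26 of the 85 reads methylated, 95% Wilson interval 21.8 to 41.0%), against 53.3 to 62.0% in the other 5 KO embryos of that diet. Its Lefty2 body was at 5.44% over 698 reads (3.99 to 7.38%), against 13.8 to 18.7% in the others. The third was HET replicate 5 of 30 ppm, with a Dppa3 body level of 78.3% over 138 reads (70.7 to 84.3%), against 55.4 to 61.4% in the other 4.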

How the results depend on the processing

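The counts of called member regions stayed within 1.5 times the reported ones in 187 of 198 recomputations. A count of 0 that stayed at 0 was taken as unchanged, as in the refits of the diet and interaction comparisons. This share therefore says little about the called regions. Single libraries were not left out in turn in the comparisons over all diets. With no minimum difference 7 regions were called between KO and WT embryos over all diets (7670 among all regions, of which 17 were lower, against 1767), 5 between KO and HET embryos (5439 against 1125 among all) and 5 between KO and WT embryos on 0.1 ppm (3869 against 1724). The 30 ppm comparison depended most on the settings, with 1 region called at a coverage minimum of 10, 3 with a promoter of 1 kb to either side, 3 in one fit of all 35 embryos and 5 without the libraries against their label, where all regions gave 366, 412, 1186 and 2295 calls. Leaving out one library at a time gave 0 to 5 called regions on 30 ppm (0 to 1469 among all regions), 1 to 3 on 0.1 ppm (980 to 2235), 4 to 5 on 3 ppm (2213 to 2504), and 0 in each comparison of diets. Between HET and WT embryos all regions gave 94 calls without the libraries against their label and 27 with no minimum difference, against 5. With litter as a block, the pairing given by the titles, the call counts over all diets stayed at 3 (KO against WT, 1732 among all), 0 (HET against WT, 0 among all) and 3 (KO against HET, 1068 among all), and 1 region was called on 0.1 ppm instead of 3 (1260 against 1724 among all). Over all diets without the libraries against their label, KO minus WT was 3.74 points in the Lefty1 body (adjusted p = 0.00026), 2.32 in the Tcl1 body (0.0674) and 1.35 in the Dppa4 promoter (0.515). The block turned the uncalled HET minus WT differences of the Lefty1 promoter to -1.50 and the Dppa4 promoter to -1.12 points. Other uncalled differences turned too. The Dppa4 promoter between KO and HET embryos was 0.982 points in one fit of all embryos and 0.168 with the shallow library included, and on 0.1 ppm ranged from -4.67 to 1.52 points with one library left out. The Tcl1 body on 0.1 ppm was -1.09 points over each library's own CpGs, -0.636 without the library against its label, and -0.636 to 1.28 with one library left out. The cause of these changes was not tested. With 6.91% of the CpGs measured, Nanog, Dppa4 and Tcl1 rest on 2 to 9 CpGs each.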

Other observations

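The called regions overlapped between the 3 phenotype tags of KO embryos. The Lefty1 promoter was at 48.0 to 62.0% in 5 embryos tagged NTD, 49.6 to 69.5% in 7 tagged norm and 30.6 to 62.3% in 4 tagged inHB, among them the library against its label. The Lefty2 body was at 12 to 18.7%, 13.7 to 18.7% and 5.44 to 19.6% in the same order, and the Dppa3 body at 72.2 to 81.2%, 69.9 to 87.8% and 77.4 to 86.3%. These values were not tested.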
